A study of Homo sapiens with 32 samples.

Results

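The 10 genes described here encode factors that cells secrete when vessels have to grow or dilate or when oxygen runs short, together with 1 of their receptors. They are the vascular endothelial growth factor (VEGF) ligands VEGFA, VEGFB, VEGFC and PGF, the co-receptor NRP1, the vasoactive peptides ADM and EDN1, the angiopoietin-like protein ANGPTL4, and the stanniocalcins STC1 and STC2. They were taken by symbol from the protein-coding rows of the count tables. They are 10 of 19815 protein-coding genes and of 60554 genes counted in all. Every one of the 10 passed the filter on low counts in both cell lines.

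VEGF ligands bind receptor tyrosine kinases on endothelial cells, and neuropilin 1 (NRP1) presents some of these ligands to the kinases. When oxygen is low, prolyl hydroxylation of the HIF α subunits fails, the subunits escape degradation, and HIF dimers bind short core sequences near target genes, among which VEGFA and ADM are classical examples. The same secreted factors can also answer to nutrient and endoplasmic reticulum stress, and mTOR, the kinase that senses nutrients, controls how much of many mRNAs is loaded onto ribosomes. In breast tumours such factors are known as signals from the epithelial or tumour cell to the vessels around it.

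RNA-Seq libraries were made from total mRNA (T) and from mRNA bound to polysomes (P), that is, carried by several ribosomes at once, of MCF10A and MDA-MB-231, both of human breast. MCF10A is immortalised epithelium without tumour-forming ability, while MDA-MB-231 was derived from a metastatic triple-negative carcinoma. Each line was kept in normoxia (N), in 0.5% O2 for 24 hours (H), in normoxia with PP242 (NPP), or in hypoxia with PP242 (HPP). The inhibitor PP242 occupies the ATP pocket of mTOR in both of its complexes, and was given at 2.5 µM for 3 hours. The study gave its control cells an equal amount of the solvent DMSO. Line, fraction and treatment gave 16 groups, each with 2 libraries that the labels call biological replicates. Each line stands for 1 cell model grown in culture. The lines came in separate tables with separate barcode series. By the study's methods they also grew in different media, that of MCF10A with added EGF, hydrocortisone, cholera toxin and insulin. Line, medium and sequencing series therefore cannot be told apart.

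Library totals ran from 18340916 to 46032327 counts, with a median of 34561484. Values are given below as CPM, that is, protein-coding counts scaled to a common library size by TMM within a line, as replicate 1 and then replicate 2. Differences come from edgeR's quasi-likelihood test over all tested genes of a line (13124 for MCF10A, 13510 for MDA-MB-231), with p-values adjusted by Benjamini-Hochberg, and calls were made at an adjusted p under 0.05. All adjusted p-values below are from this test, and SE is the standard error of a log2 fold change. Biological variation, as a coefficient, was 0.325 over the MCF10A groups and 0.150 over those of MDA-MB-231, and equal folds therefore passed less readily in MCF10A. With 2 libraries against 2 the smallest two-sided exact permutation p is 0.333, and no permutation p is given.

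The oxygen labels were checked with CA9, a HIF target encoding carbonic anhydrase 9. CA9 ran from 7.72 to 26.9 CPM over 8 normoxic MCF10A libraries and from 522 to 1356 CPM over 8 hypoxic MCF10A libraries. For MDA-MB-231 it ran from 0.0568 to 1.02 CPM in normoxia and from 13.0 to 34.6 CPM in hypoxia, with no overlap. NDRG1, EGLN3, ANKRD37 and BNIP3, further HIF targets, were called higher in hypoxia in both fractions of both lines, at log2 fold changes from 1.82 (ANKRD37 in P of MCF10A) to 6.56 (EGLN3 in P of MCF10A). PDK1, also checked, was called higher in MDA-MB-231, by 1.67 in T and 1.61 in P, but in neither fraction of MCF10A.

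The cell type labels were checked with marker lists. Basal keratins marked MCF10A, where the summed level of KRT5, KRT14, KRT17 and TP63 had a median of 3981 CPM over the 16 libraries and KRT5 alone 1919 CPM, against a sum of 2.94 CPM in MDA-MB-231. TP63, the transcription factor that defines basal cells, was near the floor in both lines, with medians of 0.0402 CPM in MCF10A and 0.133 CPM in MDA-MB-231. The epithelial cadherin CDH1 was near the floor as well (0.0785 and 0.219 CPM), and EPCAM stood at 0.303 CPM in MCF10A and 12.8 CPM in MDA-MB-231, so that these 3 defining markers went against the epithelial label of MCF10A while its keratins did not. The 5 fibroblast markers summed to a median of 126 CPM in MCF10A, most of it the matrix proteoglycan DCN (110.04 CPM), and of 14.1 CPM in MDA-MB-231, most of it COL1A1 (11.3 CPM, against 8.15 CPM in MCF10A). Vimentin, an intermediate filament of mesenchymal cells, was high in both lines, with medians of 2620 CPM in MCF10A and 3973 CPM in MDA-MB-231. The other mesenchymal markers on the list went separate ways. ZEB1 stood at 18.8 CPM in MCF10A and 61.9 CPM in MDA-MB-231 at the median. The cadherin CDH2 stood at 54.3 CPM in MCF10A and only 0.587 CPM in MDA-MB-231, against the order of the other markers. Because several of the 10 factors act on endothelium, 10 endothelial markers were summed as well. Their sum had a median of 9.42 CPM in MCF10A (range 3.58 to 40.2), most of it ROBO4 (8.17 CPM), and of 219 CPM in MDA-MB-231 (range 153 to 294), most of it the junction protein ESAM (192 CPM). The endothelial cadherin CDH5 reached at most 1 count in any MCF10A library and 2 counts in any MDA-MB-231 library. ROBO4 rose in hypoxic MCF10A cells by a log2 fold change of 2.21 in T (adjusted p = 0.00762) and 1.93 in P (adjusted p = 0.0166), in the same comparisons in which 4 of the factors rose. COL1A1, a fibroblast collagen, rose there too, by 1.68 in T (adjusted p = 0.0121) and 1.47 in P (adjusted p = 0.0254). The part of either in the change of the factors was not tested.

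Gene positions below are those of GENCODE v44 on GRCh38, and every identifier of the 10 genes in the files matched that annotation. VEGFA lies on chromosome 6 at 43770184 to 43786487 on the plus strand, and EDN1 on the same chromosome and strand at 12290361 to 12297194. VEGFB (64234584 to 64239264) and ADM (10305073 to 10307397) lie on the plus strand of chromosome 11. VEGFC lies on the minus strand of chromosome 4 at 176683538 to 176792922, PGF on the minus strand of chromosome 14 at 74941834 to 74955626, and NRP1 on the minus strand of chromosome 10 at 33177492 to 33336262. ANGPTL4 lies on the plus strand of chromosome 19 at 8363289 to 8374370. The stanniocalcins are on the minus strands of separate chromosomes, STC1 on chromosome 8 at 23841929 to 23854806 and STC2 on chromosome 5 at 173314723 to 173328447. Long non-coding genes on the opposite strand share 1.30% of the exonic bases of VEGFA and 4.87% of those of NRP1, and reads from such partners cannot be told apart in libraries of a kit that does not mark strand.

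The lines differed in which of the factors they carried in normoxia without PP242. In normoxic T of MCF10A, ANGPTL4 stood first at 126 ± 31.4 CPM per kb of its canonical transcript (SD, n = 2), with all 32 libraries scaled together for this purpose. VEGFC (37.8 ± 3.35), ADM (30.9 ± 0.133), VEGFB (29.8 ± 7.30) and STC2 (24.5 ± 2.83) followed in CPM per kb. The ADM libraries lay inside the range of the VEGFB ones (24.7 to 35.0 CPM per kb), and those of STC2 (22.5 to 26.5) overlapped with that range. NRP1 (11.0 ± 1.06) and VEGFA (10.9 ± 1.04) overlapped with each other, and below them stood EDN1 (6.75 ± 0.461), STC1 (2.55 ± 0.346) and PGF (0.264 ± 0.0498), each apart from its neighbour. Over the merged exons of all transcripts ANGPTL4 and VEGFC remained first and second, while ADM ranked 5 and VEGFA 8 of the 10.

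In normoxic T of MDA-MB-231, VEGFA stood first at 66.3 ± 8.53 CPM per kb (SD, n = 2). ADM followed at 34.4 ± 5.83 CPM per kb. VEGFB (24.3 ± 2.57), VEGFC (23.3 ± 3.49), NRP1 (21.5 ± 4.36) and EDN1 (21.0 ± 0.609) came next in CPM per kb, and each overlapped with its neighbour in this order. PGF (10.9 ± 1.88), STC1 (7.73 ± 1.70) and ANGPTL4 (4.45 ± 0.175) followed, each apart from the one before, and STC2 was last at 0.238 ± 0.0265 CPM per kb. This order depends on the length used, since over the merged exons of all transcripts VEGFA ranked 5, ANGPTL4 8, PGF 9 and STC2 10 of the 10 in MDA-MB-231.

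Hypoxia raised 4 of the 10 factors in MCF10A and 2 of the 10 in MDA-MB-231, in T and in P alike, and lowered none. In MCF10A these were ADM, ANGPTL4, STC1 and STC2, at folds between 4.08 and 7.18. In MDA-MB-231 they were ANGPTL4, at about the same fold as in MCF10A, and EDN1, at folds of 1.94 and 1.78. ANGPTL4 was the member called in both lines. The count in MDA-MB-231 depends on the test, since DESeq2 called 5 of the 10 higher in each fraction (and 1.95% of all genes in T and 3.15% in P) and edgeR without the low-count filter 6 in T and 8 in P (1.88% and 3.51% of all genes). At an unadjusted p under 0.05 edgeR had 7 in T and 8 in P there against 6 and 6 in MCF10A. At that level stood 1712 and 2327 of all 13510 genes of MDA-MB-231 and 1426 and 1636 of all 13124 of MCF10A. In such bulk samples fewer cells making a transcript and less of it per cell cannot be told apart.

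In the background, hypoxia called 1.39% of the 13124 MCF10A genes higher and 0.145% lower in T, and 1.33% higher and 0.160% lower in P. In MDA-MB-231 it called 0.977% of 13510 genes higher and 0.289% lower in T, and 1.78% higher and 0.511% lower in P. The median log2 fold change of the 10 factors was 1.67 in T and 1.73 in P of MCF10A, where the median over all tested genes was −0.03 and −0.07. In MDA-MB-231 it was 0.66 in both T and P, against −0.02 and 0.01 over all tested genes.

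**Figure D1:**
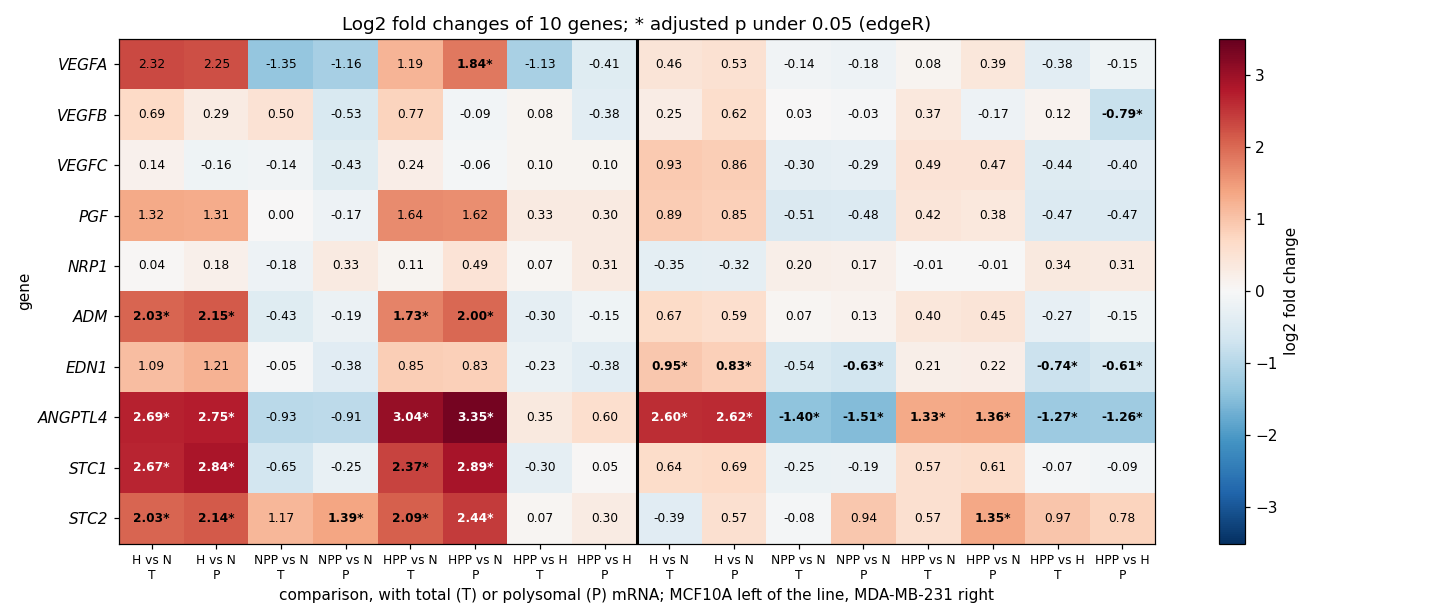
Log2 fold changes of the 10 factors (rows) in each treatment against normoxia, for T and P of both lines (columns), and in HPP against H, as colours with the value written in each cell and an asterisk at adjusted p under 0.05. Under H and HPP the deepest reds of MCF10A lie in ANGPTL4 and STC1, and that of MDA-MB-231 in ANGPTL4.

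ANGPTL4, a secreted inhibitor of lipoprotein lipase that also acts on endothelial barriers, had the most abundant mRNA of the 10 in MCF10A. Its T libraries held 166 and 235 CPM in N and 1217 and 1371 CPM in H. Its P libraries held 308 and 285 CPM in N and 2192 and 1793 CPM in H. Both hypoxic libraries lay far above both normoxic ones in each fraction. The log2 fold change was 2.69 in T (SE 0.39, adjusted p = 0.00524) and 2.75 in P (SE 0.40, adjusted p = 0.00445), or 6.45-fold and 6.72-fold.

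In MDA-MB-231 ANGPTL4 started lower and rose by a like factor. Its T libraries held 9.33 and 10.2 CPM in N and 52.4 and 65.8 CPM in H. Its P libraries held 12.7 and 10.3 CPM in N and 73.2 and 67.5 CPM in H. The groups did not overlap, and the log2 fold change was 2.60 in T (SE 0.25, adjusted p = 5.65e-05) and 2.62 in P (SE 0.25, adjusted p = 4.87e-05). The difference between the lines in the T response was −0.05 on the log2 scale (SE 0.45), a difference smaller than its error.

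ADM encodes adrenomedullin, a vasodilating peptide that acts through a receptor of CALCRL with a RAMP protein. In T of MCF10A it held 39.2 CPM in both normoxic libraries and 155 and 166 CPM in H. In P it held 49.7 and 51.8 CPM in N and 235 and 214 CPM in H. Replicates were close, with a median ratio of the higher to the lower library of 1.08 over the 8 groups of this line. ADM rose by a log2 fold change of 2.03 in T (SE 0.23, adjusted p = 0.00109) and 2.15 in P (SE 0.23, adjusted p = 0.000763).

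In MDA-MB-231 ADM was not called. Its T libraries held 66.2 and 53.9 CPM in N and 92.7 and 99.04 CPM in H, and both hypoxic libraries lay above both normoxic ones. The log2 fold change was 0.67 in T (SE 0.28, adjusted p = 0.325) and 0.59 in P (SE 0.27, adjusted p = 0.286). The log2 fold changes were smaller than in MCF10A, at SEs not far from those there. Replicates were wider apart, with a median ratio of 1.31. The part of either in the missing call was not tested.

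STC1 and STC2 encode stanniocalcins, glycoprotein hormones first known from calcium and phosphate balance. STC1 held 7.60 and 9.15 CPM in T of normoxic MCF10A and 61.3 and 45.2 CPM in H. In P it held 5.03 and 8.88 CPM in N and 45.0 and 55.2 CPM in H. Hypoxic and normoxic libraries were well apart, and STC1 had the largest fold among the called members in P. It rose by a log2 fold change of 2.67 in T (SE 0.40, adjusted p = 0.00592) and 2.84 in P (SE 0.41, adjusted p = 0.00427).

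STC2 in T of MCF10A held 81.5 and 95.3 CPM in N and 362 and 359 CPM in H. In P it held 89.3 and 113 CPM in N and 400.1 and 497 CPM in H. It rose by a log2 fold change of 2.03 in T (SE 0.26, adjusted p = 0.0019) and 2.14 in P (SE 0.26, adjusted p = 0.00139), with no overlap of groups.

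Neither stanniocalcin was called in hypoxic MDA-MB-231 cells. STC1 held 39.8 and 30.2 CPM in N and 53.7 and 55.9 CPM in H in T, a log2 fold change of 0.64 (SE 0.26), and its groups did not overlap. STC2 was near the limit of what the depth shows, at 13 to 82 counts per library. It held 1.08 and 1.31 CPM in N and 0.923 and 0.866 CPM in H in T, and 0.566 and 0.743 CPM in N and 0.915 and 1.05 CPM in H in P. The fractions moved in opposite directions (log2 fold changes of −0.39 in T and 0.57 in P), and neither passed the test.

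EDN1 encodes endothelin 1, a vasoconstrictor peptide with receptors EDNRA and EDNRB. In T of MDA-MB-231 it held 50.1 and 49.9 CPM in N and 85.5 and 108.3 CPM in H. In P it held 51.5 and 48.4 CPM in N and 91.0 and 87.1 CPM in H. The hypoxic libraries stood clear of the normoxic ones, which scarcely differed from each other. EDN1 rose by a log2 fold change of 0.95 in T (SE 0.13, adjusted p = 0.00148) and 0.83 in P (SE 0.13, adjusted p = 0.00444), or 1.94-fold and 1.78-fold.

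In MCF10A the fold of EDN1 was larger but its error was too. It held 12.3 and 11.1 CPM in N and 22.8 and 26.9 CPM in H in T, and 13.1 and 10.1 CPM in N and 30.8 and 22.7 CPM in H in P. Groups did not overlap, and the log2 fold changes of 1.09 in T (SE 0.32, adjusted p = 0.158) and 1.21 in P (SE 0.32, adjusted p = 0.104) were not called.

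VEGFA, the main ligand of KDR, was not called under hypoxia alone in either line. In T of MCF10A it held 35.7 and 30.9 CPM in N and 229 and 103.3 CPM in H. In P it held 11.9 and 19.6 CPM in N and 79.5 and 70.5 CPM in H. Every hypoxic library lay above every normoxic one, but the 229 and 103.3 CPM of the T replicates stood far apart. The log2 fold change was 2.32 in T (SE 0.57, adjusted p = 0.0816) and 2.25 in P (SE 0.57, adjusted p = 0.0878).

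In MDA-MB-231 VEGFA was high from the start. It held 301 and 259.8 CPM in N and 341 and 433 CPM in H in T, and 174 and 181 CPM in N and 239 and 274 CPM in H in P. The groups did not overlap, with log2 fold changes of 0.46 in T (SE 0.15, adjusted p = 0.164) and 0.53 in P (SE 0.15, adjusted p = 0.0734) that did not pass.

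VEGFC, a ligand of FLT4 known from lymphatic growth, and PGF, a ligand of FLT1, stood apart from their normoxic libraries in hypoxic MDA-MB-231 cells without being called. VEGFC in T held 54.3 and 69.6 CPM in N and 116 and 119.6 CPM in H, a log2 fold change of 0.93 (SE 0.22, adjusted p = 0.062). PGF in T held 19.3 and 25.5 CPM in N and 43.2 and 39.5 CPM in H, a log2 fold change of 0.89 (SE 0.23, adjusted p = 0.0847). In P their log2 fold changes were 0.86 (adjusted p = 0.0594) and 0.85 (adjusted p = 0.0703). VEGFA, VEGFC and PGF were the factors that DESeq2 called in addition.

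In MCF10A VEGFC showed no such shift. It held 68.3 and 76.8 CPM in N and 71.9 and 88.1 CPM in H in T, with overlapping groups. PGF was scarce there, at 7 to 66 counts per library, and held 0.444 and 0.337 CPM in N and 0.867 and 1.08 CPM in H in T. Its log2 fold changes of 1.32 in T (adjusted p = 0.583) and 1.31 in P (adjusted p = 0.522) were not called.

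VEGFB, a ligand of FLT1 known from lipid handling in muscle and heart, and NRP1 were not called in either line. VEGFB in T held 38.0 and 53.5 CPM in N and 59.8 and 87.5 CPM in H of MCF10A, and 46.7 and 56.3 CPM in N and 57.6 and 65.1 CPM in H of MDA-MB-231. In P of MDA-MB-231 it held 22.5 and 25.4 CPM in N and 26.9 and 46.6 CPM in H, without overlap. The log2 fold change there was 0.62 (SE 0.24, adjusted p = 0.194), and in P of MCF10A, with overlap, 0.29 (SE 0.59, adjusted p = 0.943). NRP1 in T held 49.2 and 56.0 CPM in N and 62.8 and 45.0 CPM in H of MCF10A, with overlap. In MDA-MB-231 NRP1 held 159.7 and 124 CPM in N and 124 and 98.99 CPM in H in T, and its log2 fold changes of −0.35 in T and −0.32 in P (SE 0.18 in both) were not called.

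**Figure D2:**
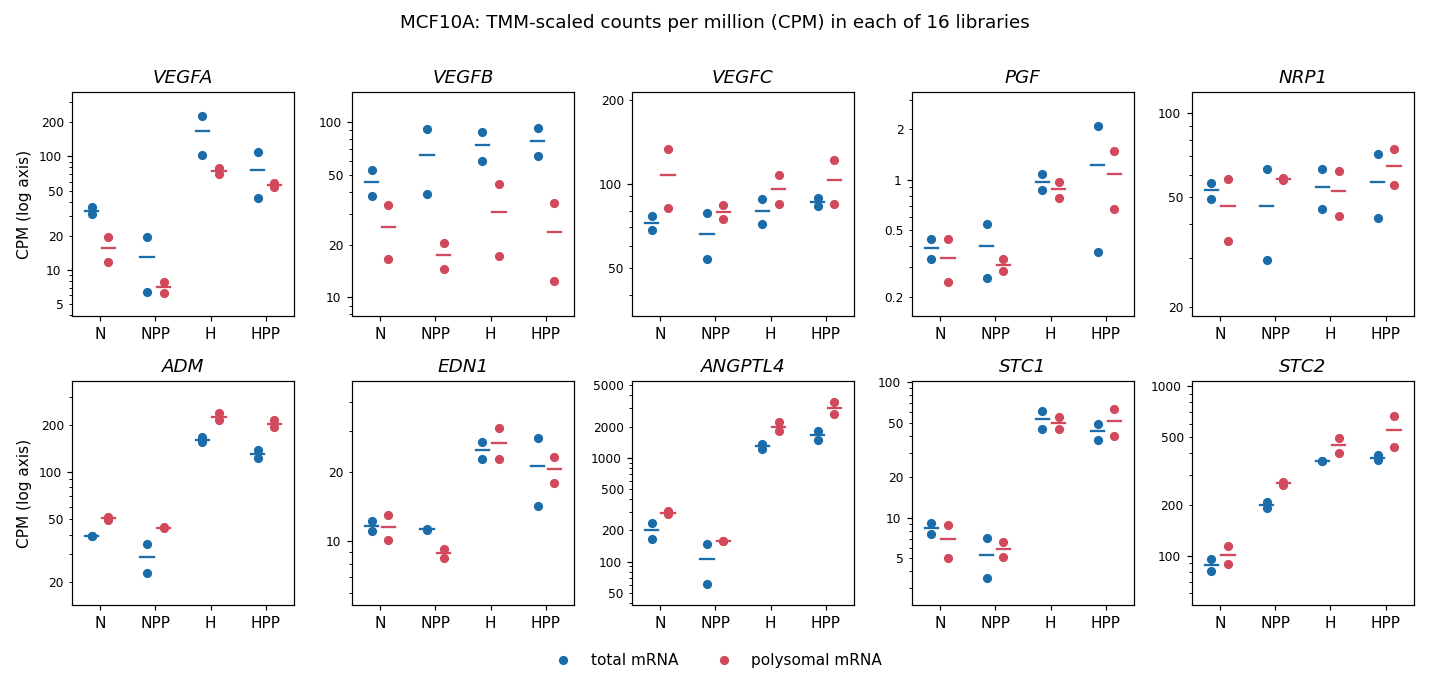
CPM of each of the 10 factors in the 16 MCF10A libraries (log axis), by treatment, with T and P drawn apart, points for libraries and bars for the mean of 2. ANGPTL4, ADM, STC1 and STC2 step up in all H and HPP libraries, while the VEGFA points of T in H lie at 229 and 103.3 CPM.

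**Figure D3:**
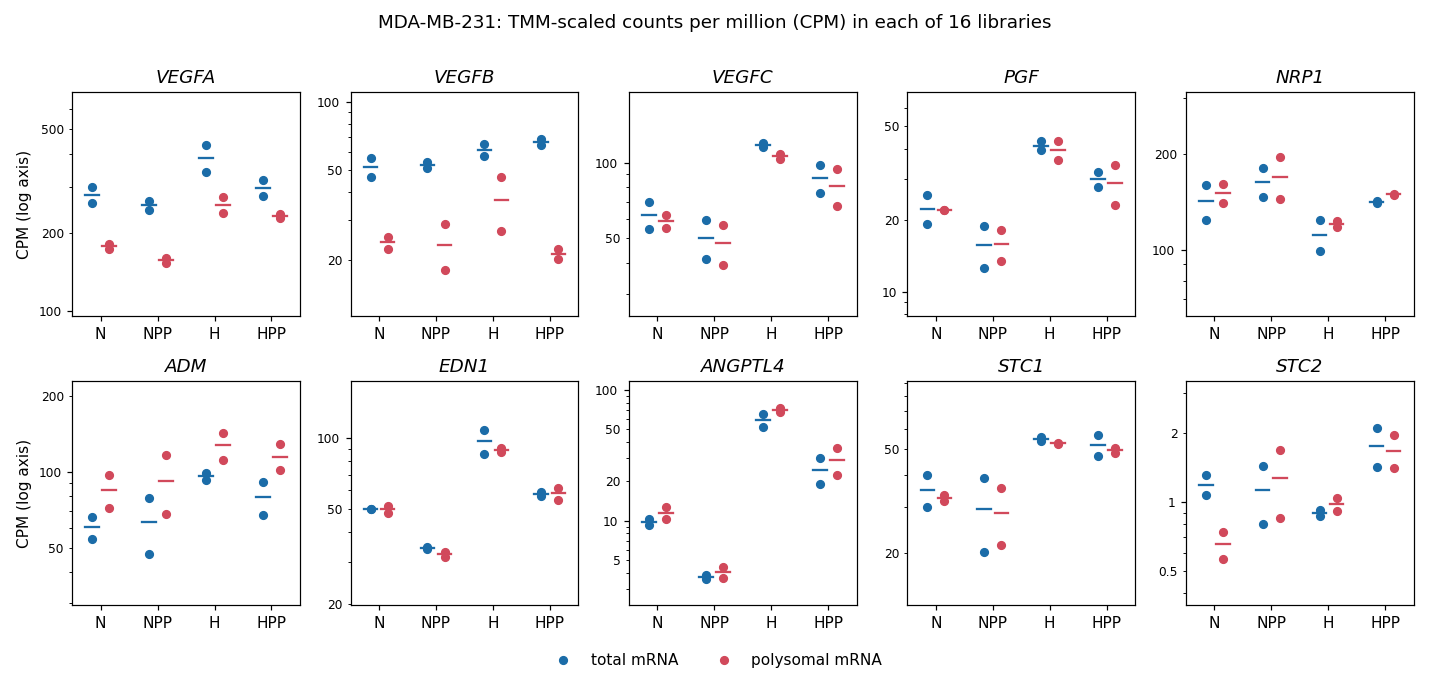
The same for the 16 MDA-MB-231 libraries, in CPM on a log axis with points for libraries and bars for their mean. ANGPTL4 and EDN1 step up in H, ANGPTL4 lies below N in NPP, and STC2 runs from 0.566 to 2.11 CPM.

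Single libraries decided part of these hypoxia calls. Without the first normoxic T library of MCF10A, only ADM of the 4 was called in T, and ANGPTL4, STC1 and STC2 had log2 fold changes of 2.46, 2.54 and 1.91 with adjusted p of 0.131, 0.14 and 0.0712, and a fit to only the 4 P libraries compared called 0 of the 4 (adjusted p from 0.0814 to 0.117). In MDA-MB-231 the ANGPTL4 calls were kept in all 23 alternatives run, EDN1 in T was lost in the fit to only 4 libraries (log2 fold change 0.96, adjusted p = 0.0799), and EDN1 in P was lost without the second normoxic P library (log2 fold change 0.77, adjusted p = 0.0652).

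Sequence upstream of the called genes was read from RefSeq windows of GRCh38.p14. These run from 250 bases before to 50 bases after a transcript start. Windows of 7 of the 10 genes were searched. VEGFA and NRP1 had no window. STC1 was left out of the search although it was called in hypoxic MCF10A cells, so its matches are not given. The letters searched were ACGTG and GCGTG on both strands, the core to which HIF dimers bind, and 48.4% of all 35116 windows hold at least 1 match, 23.1% at least 2 and 10.1% at least 3. A match is a description of the window and not a bound site. The windows of ADM (chr11:10304823-10305122, plus strand), ANGPTL4 (chr19:8363905-8364204, plus strand), STC2 (chr5:173328365-173328664, minus strand) and EDN1 (chr6:12290111-12290410, plus strand) are shown because these genes, 4 of the 5 that rose, were called in hypoxia in at least 1 line, with the matched letters in capitals.
ADM: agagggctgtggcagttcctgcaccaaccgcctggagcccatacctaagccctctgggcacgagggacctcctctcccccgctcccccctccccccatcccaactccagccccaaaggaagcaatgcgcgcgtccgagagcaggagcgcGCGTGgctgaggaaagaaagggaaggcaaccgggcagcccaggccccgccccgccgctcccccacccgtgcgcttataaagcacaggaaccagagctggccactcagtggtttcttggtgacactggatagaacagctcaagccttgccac
ANGPTL4: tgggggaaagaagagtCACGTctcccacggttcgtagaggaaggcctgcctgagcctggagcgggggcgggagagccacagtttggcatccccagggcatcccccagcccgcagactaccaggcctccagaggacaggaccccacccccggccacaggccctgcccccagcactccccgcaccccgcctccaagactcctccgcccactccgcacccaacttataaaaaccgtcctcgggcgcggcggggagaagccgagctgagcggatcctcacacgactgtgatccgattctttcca
STC2: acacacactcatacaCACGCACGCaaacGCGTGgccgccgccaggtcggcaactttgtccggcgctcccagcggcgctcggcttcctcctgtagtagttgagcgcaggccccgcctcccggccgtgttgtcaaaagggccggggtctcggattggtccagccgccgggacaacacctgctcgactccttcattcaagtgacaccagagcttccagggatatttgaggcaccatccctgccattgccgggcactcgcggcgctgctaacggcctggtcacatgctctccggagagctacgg
EDN1: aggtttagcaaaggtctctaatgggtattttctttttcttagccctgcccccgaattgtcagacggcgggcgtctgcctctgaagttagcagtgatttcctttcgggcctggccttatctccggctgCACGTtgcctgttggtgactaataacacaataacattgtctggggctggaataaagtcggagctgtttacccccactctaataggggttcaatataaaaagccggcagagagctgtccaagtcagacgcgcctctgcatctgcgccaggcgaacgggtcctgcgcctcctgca

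The ADM window holds 1 match, whose first base lies at position −101 from the transcript start, and the ANGPTL4 window holds 1 at −234. The STC2 window holds 3, at −235, −231 and −222, of which the first and second share a base. EDN1 has 3 windows in the table, of which the one shown, at the GENCODE start, holds 1 match at −123 and the others 3 and 0. VEGFB, VEGFC and PGF, which edgeR did not call in hypoxia in either line, also have windows with 1 match each.

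PP242 in normoxia raised 1 factor in MCF10A and lowered 2 in MDA-MB-231. STC2 was the factor that rose, in P of MCF10A, and ANGPTL4 and EDN1 were those that fell. In MCF10A T no member was called by edgeR, with 3 of the 10 at an unadjusted p under 0.05 (and 1252 of all 13124 genes) and 1 called by DESeq2 (2.84% of all genes), while edgeR called 0.343% of all tested genes higher and 0.305% lower. That edgeR count held no replicate block. A fit with a replicate block called 1 of the 10 in T of MCF10A, and with the block within fraction 2. In MCF10A P 1 of the 10 was called, where 0.472% of genes were called higher and 0.351% lower. In MDA-MB-231 T 1 of the 10 was called, where 0.377% were called higher and 0.178% lower, and in P 2 of the 10, where 0.762% were called higher and 1.19% lower.

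STC2 in P of MCF10A held 89.3 and 113 CPM in N and 261 and 271 CPM with PP242. In T it held 81.5 and 95.3 CPM in N and 191 and 206 CPM with PP242. Both PP242 libraries lay above both N libraries in each fraction. The log2 fold change was 1.39 in P (SE 0.25, adjusted p = 0.0291) and 1.17 in T (SE 0.25, adjusted p = 0.0719). The call in P was lost in 13 of 23 alternatives, with adjusted p up to 0.303.

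ANGPTL4 in T of MDA-MB-231 held 9.33 and 10.2 CPM in N and 3.80 and 3.59 CPM with PP242. In P it held 12.7 and 10.3 CPM in N and 4.39 and 3.63 CPM with PP242. The treated libraries were the lowest of the line, and ANGPTL4 fell by a log2 fold change of −1.40 in T (SE 0.26, adjusted p = 0.0267) and −1.51 in P (SE 0.26, adjusted p = 0.00482). In MCF10A it held 166 and 235 CPM in N and 60.7 and 149.5 CPM with PP242 in T, a log2 fold change of −0.93 (SE 0.37, adjusted p = 0.432) that was not called.

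EDN1 in P of MDA-MB-231 held 51.5 and 48.4 CPM in N and 33.0 and 31.5 CPM with PP242. It fell there by a log2 fold change of −0.63 (SE 0.13, adjusted p = 0.0236). In T it held 50.1 and 49.9 CPM in N and 33.9 and 34.8 CPM with PP242, a log2 fold change of −0.54 (SE 0.13, adjusted p = 0.0995). VEGFA in MCF10A held 35.7 and 30.9 CPM in N and 19.7 and 6.41 CPM with PP242 in T, and these groups did not overlap, but the replicates of the treated group differed 3.08-fold and the change was not called (log2 fold change −1.35, adjusted p = 0.443). The T call of ANGPTL4 in MDA-MB-231 was lost in 5 of 23 alternatives and the P call of EDN1 in 5 of 23. The P call of ANGPTL4 was lost without the first normoxic P library (−1.31, adjusted p = 0.057) and without the second PP242 library (−1.38, adjusted p = 0.0749).

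Hypoxia with PP242 against normoxia called 4 of the 10 higher in T and 5 in P of MCF10A, and 1 in T and 2 in P of MDA-MB-231, with none lower. The counts in MDA-MB-231 depend on the low-count filter, and without it edgeR called more of the 10 in both fractions. ADM, ANGPTL4, STC1 and STC2 rose again in MCF10A, VEGFA was called as well in P, and in MDA-MB-231 ANGPTL4 was joined in P by STC2. Much of the transcriptome moved in these comparisons. In MCF10A 7.43% of genes were called higher and 7.47% lower in T, and 10.2% higher and 11.9% lower in P. In MDA-MB-231 6.31% were called higher and 6.91% lower in T, and 9.71% higher and 9.73% lower in P. The median log2 fold change of the 10 factors was 1.42 in T and 1.73 in P of MCF10A and 0.41 and 0.42 in MDA-MB-231. Cell type markers moved in these comparisons as well. Of those of other cell types, ROBO4, PECAM1 and COL1A1 rose in both fractions of MCF10A and CD68 in T, and of those that the line itself carries KRT14 and KRT17 rose in both fractions and VIM in T. TIE1 in T and COL1A2 in P were called on few counts (1 to 24 and 0 to 48 per library of MCF10A). In MDA-MB-231 ROBO4 rose in both fractions and VIM in T, while EPCAM, KRT18 and CD68 fell in P. Their part in the change of the factors was not tested.

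ANGPTL4 reached its highest levels in this condition, at 1814 and 1494 CPM in T and 3413 and 2626 CPM in P of MCF10A. Against normoxia that was a log2 fold change of 3.04 in T (SE 0.40, adjusted p = 0.00074) and 3.35 in P (SE 0.41, adjusted p = 0.000352), or 8.24-fold and 10.2-fold. In MDA-MB-231 it held 19.1 and 30.0 CPM in T and 22.4 and 36.4 CPM in P, between the N and H libraries, with log2 fold changes of 1.33 (SE 0.25, adjusted p = 0.00357) and 1.36 (SE 0.24, adjusted p = 0.00176).

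ADM in MCF10A held 122 and 138 CPM in T and 192 and 214 CPM in P, with log2 fold changes of 1.73 (adjusted p = 0.000784) and 2.00 (adjusted p = 0.000296). STC1 held 48.8 and 37.6 CPM in T and 40.2 and 63.3 CPM in P, with log2 fold changes of 2.37 (adjusted p = 0.0026) and 2.89 (adjusted p = 0.000782). STC2 held 364 and 390.5 CPM in T and 437 and 666 CPM in P, with log2 fold changes of 2.09 (adjusted p = 0.000491) and 2.44 (adjusted p = 0.00018). These 3 genes and ANGPTL4 kept their calls in MCF10A in all 23 alternatives run.

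VEGFA in P of MCF10A held 11.9 and 19.6 CPM in N and 58.6 and 54.1 CPM in hypoxia with PP242. It rose by a log2 fold change of 1.84 (SE 0.56, adjusted p = 0.0358), whereas in T, at 108.9 and 43.4 CPM, the log2 fold change of 1.19 (SE 0.55, adjusted p = 0.173) was not called. The uncalled log2 fold change of VEGFA in P under hypoxia alone was larger, at 2.25 (adjusted p = 0.0878). STC2 in P of MDA-MB-231 held 0.566 and 0.743 CPM in N and 1.40 and 1.95 CPM in hypoxia with PP242, a log2 fold change of 1.35 (SE 0.41, adjusted p = 0.032). The VEGFA call was lost in 8 of 23 alternatives, and the STC2 call was lost without any 1 of the 4 libraries it compares.

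Adding PP242 to hypoxic cells, that is, comparing HPP with H, lowered factors in MDA-MB-231 and called none in MCF10A. EDN1 and ANGPTL4 fell in both fractions of MDA-MB-231, and VEGFB fell in P. In MCF10A edgeR called 0 of the 10 in T and 0 in P, with 0 at an unadjusted p under 0.05 in either and 0 called by DESeq2, while 3.74% of all genes were called in T and 6.50% in P. In MDA-MB-231 2 of the 10 were called lower in T and 3 in P, where 2.08% and 6.62% of all genes were called lower.

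ANGPTL4 in MDA-MB-231 went from 52.4 and 65.8 CPM in H to 19.1 and 30.0 CPM with PP242 in T. In P it went from 73.2 and 67.5 CPM to 22.4 and 36.4 CPM. It fell by a log2 fold change of −1.27 in T (SE 0.24, adjusted p = 0.0116) and −1.26 in P (SE 0.23, adjusted p = 0.00377). In MCF10A the same comparison gave 0.35 in T (SE 0.37, adjusted p = 0.759) and 0.60 in P (SE 0.37, adjusted p = 0.398), with both PP242 libraries above both H libraries in each fraction. VEGFA in T of MCF10A went from 229 and 103.3 CPM in H to 108.9 and 43.4 CPM with PP242, with overlapping groups and a log2 fold change of −1.13 (SE 0.55, adjusted p = 0.353). It lay lower in each same-numbered pair, and a fit with a replicate block within fraction called it (−1.16, adjusted p = 0.0475), as it called 5.49% of all genes lower.

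EDN1 in MDA-MB-231 went from 85.5 and 108.3 CPM in H to 59.2 and 56.8 CPM with PP242 in T, and from 91.0 and 87.1 CPM to 54.9 and 61.7 CPM in P. It fell by a log2 fold change of −0.74 in T (SE 0.13, adjusted p = 0.00993) and −0.61 in P (SE 0.13, adjusted p = 0.00919). VEGFB in P went from 26.9 and 46.6 CPM to 22.4 and 20.3 CPM, a log2 fold change of −0.79 (SE 0.24, adjusted p = 0.0439). Single libraries decided these calls. Both T calls were lost without the first HPP library of T (EDN1 −0.73, adjusted p = 0.061, and ANGPTL4 −0.94, adjusted p = 0.112) and without the second H library (−0.55, adjusted p = 0.132, and −1.08, adjusted p = 0.119), and that of EDN1 without the second HPP library (−0.66, adjusted p = 0.148). All 3 P calls were lost without the first HPP library of P (EDN1 −0.53, adjusted p = 0.127, ANGPTL4 −0.95, adjusted p = 0.0674, and VEGFB −0.86, adjusted p = 0.167), that of EDN1 without the first H library (−0.55, adjusted p = 0.0534), and that of VEGFB without the second (−0.32, adjusted p = 0.467).

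Translational efficiency, the change in P beyond that in T, was called for none of the 10 factors in any treatment. The interaction of fraction and treatment in edgeR called 0 of 10 in each line and treatment, with 0 at an unadjusted p under 0.05 and 0 called by DESeq2. In MCF10A it called 0.00% of all tested genes in H, 0.00% in NPP and 0.00% in HPP. In MDA-MB-231 it called 0.0148% in H, 0.340% in NPP and 0.696% in HPP. A z-score of the difference beyond 1.5 in absolute value, together with an adjusted p under 0.1 for the change in P, also picked 0 of the 10 in either line, against 3.55% of all MCF10A genes and 1.52% of all MDA-MB-231 genes in any treatment. STC2 of MDA-MB-231 in NPP was past the first limit (z = 1.53) but not the second (adjusted p = 0.335).

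**Figure D4:**
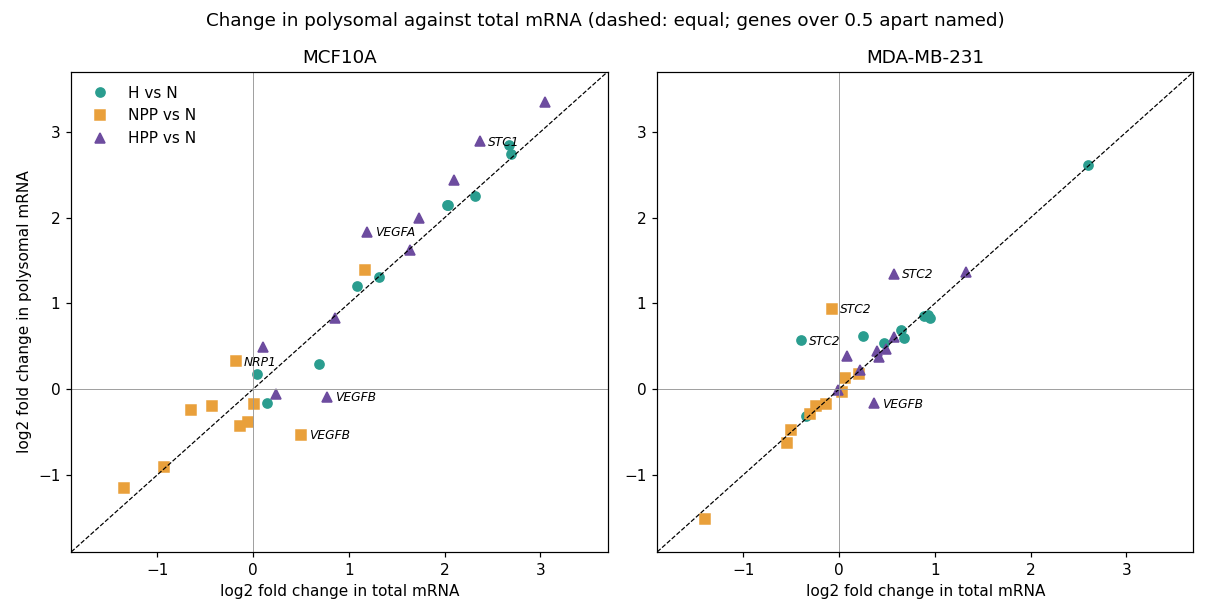
Log2 fold change in P (vertical) against that in T (horizontal) for the 10 factors under each treatment, 1 panel per line, with a dashed line of equal change and the names of factors more than 0.5 from it. Most points lie near the dashed line, and STC2 of MDA-MB-231, at 13 to 82 counts per library, lies farthest above it.

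The largest such difference among the more abundant factors of MDA-MB-231 was that of VEGFB under HPP, at −0.54 on the log2 scale (SE 0.33), and VEGFA under HPP stood at 0.31 (SE 0.21). STC2 had differences of 0.96 in H (SE 0.60), 1.01 in NPP (SE 0.58) and 0.77 in HPP (SE 0.57) on its low counts. In MCF10A the errors were 0.32 to 1.12 on the log2 scale, and differences there reached −1.03 (SE 0.84) for VEGFB in NPP, −0.86 (SE 0.84) for VEGFB in HPP and 0.64 (SE 0.77) for VEGFA in HPP.

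In normoxia without PP242, VEGFA and VEGFB were called lower in P than in T in MDA-MB-231, and both were lower without a call in MCF10A. The ratio of P to T CPM of same-numbered libraries was 0.577 and 0.695 for VEGFA and 0.452 and 0.481 for VEGFB in N, where 1 is the average mRNA. P against T gave a log2 difference of −0.66 for VEGFA (SE 0.15, adjusted p = 0.011) and −1.10 for VEGFB (SE 0.24, adjusted p = 0.0095). These were 2 of the 10, and 8.64% of all genes were called lower in P. Both calls were lost without the first normoxic P library (VEGFA −0.66, adjusted p = 0.0624, and VEGFB −1.04, adjusted p = 0.0655), and single other normoxic libraries also decided them.

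The ratio of VEGFA stayed under 1 in every MDA-MB-231 library pair, at 0.633 to 0.702 in H, 0.605 to 0.624 in NPP and 0.741 to 0.827 in HPP. That of VEGFB was lowest in HPP, at 0.296 to 0.348. ADM went the other way in both lines, with ratios of 1.27 to 1.32 in N of MCF10A and 1.33 to 1.46 in N of MDA-MB-231, but its log2 differences of 0.37 (SE 0.22, adjusted p = 0.518) and 0.49 (SE 0.28, adjusted p = 0.265) were not called. In MCF10A edgeR called 0 of the 10, 0.00% of all genes, and 0 at an unadjusted p under 0.05, with 0 called by DESeq2. The log2 differences there were −1.08 for VEGFA (SE 0.55, adjusted p = 0.441) and −0.86 for VEGFB (SE 0.59, adjusted p = 0.594), with both P libraries below both T libraries, and the ratio of VEGFA was 0.334 to 0.633 in N and 0.347 to 0.683 in H, but 0.319 to 1.22 in NPP and 0.538 to 1.25 in HPP.

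The responses of the lines to hypoxia were then compared directly, in a joint fit of all 32 libraries (14298 genes), as the effect in MDA-MB-231 minus that in MCF10A. STC2 in T was the 1 member of 10 called, at −2.37 on the log2 scale (SE 0.46, adjusted p = 0.0253), where 0.196% of all genes were called lower. It rose 4.08-fold in MCF10A and had a log2 fold change of −0.39 in MDA-MB-231. Its MDA-MB-231 side rests on 19 to 34 counts per library, and the call was lost without any 1 of the 8 libraries compared.

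In P edgeR called 0 of the 10 and 0.329% of all genes. At an unadjusted p under 0.05 stood 5 of the 10 and 928 of all 14298 genes, and DESeq2 called 2 of the 10 and 0.685% of all genes lower. The difference in P was −2.23 for STC1 (adjusted p = 0.0637) and −1.63 for ADM (adjusted p = 0.0879). VEGFA differed by −1.79 in T (SE 0.56, adjusted p = 0.288). Fits with a replicate block called 2 of the 10 lower in T (STC2 and ADM) and 3 in P (with STC1), where they called 0.357% and 0.532% of all genes lower. With the block within fraction it was 4 in each (with VEGFA and STC1), and 0.511% and 0.720% of all genes.

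The same contrast for the PP242 treatments was added after the data had been seen. For PP242 in normoxia it called 0 of the 10 in T, with 2 at an unadjusted p under 0.05 (591 of all genes), and 0 in P, with 0 at that level, and DESeq2 called 0 in both, while 0.0560% and 0.126% of all genes were called. For hypoxia with PP242 it called 3 of the 10 lower in P, where 1.44% of all genes were called lower. They were STC1 at −2.31 (SE 0.50, adjusted p = 0.0117), ANGPTL4 at −2.01 (SE 0.45, adjusted p = 0.0142) and ADM at −1.58 (SE 0.40, adjusted p = 0.0275) on the log2 scale. In T edgeR called 0 of the 10 and 3.31% of all genes. At an unadjusted p under 0.05 stood 4 of the 10 and 2200 of all 14298 genes, and DESeq2 called 4 of the 10 and 2.66% of all genes lower. Fits with a replicate block called 4 of the 10 in T, and so did those with the block within fraction, which also called more than 3 in P.

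**Figure D5:**
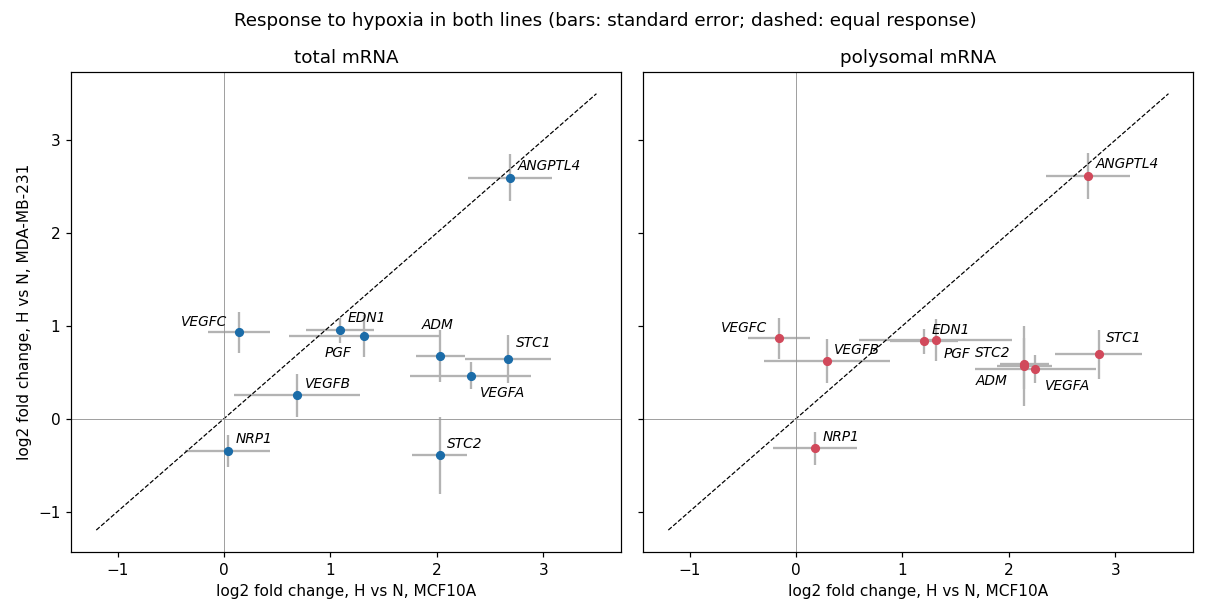
Log2 fold change under hypoxia in MDA-MB-231 (vertical) against MCF10A (horizontal) for the 10 factors, in T and in P, with error bars of 1 SE and the line of equal change. ANGPTL4 lies close to the line in both, ADM, STC1, STC2 and VEGFA lie below it, and VEGFC lies above it.

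The calls of the line difference under hypoxia with PP242 depended on single libraries. ADM lost its call without any 1 of 6 libraries, STC1 without any 1 of 4 and ANGPTL4 without any 1 of 3.

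Several receptors of these factors held few counts. FLT1, the kinase receptor of PGF and VEGFB, had a median of 0.0238 CPM in MCF10A, too low to be tested, and 0.582 CPM in MDA-MB-231 (range 0.261 to 1.71). KDR, the main VEGFA receptor, had a median of 0.766 CPM in MCF10A (range 0.221 to 2.39) and 6.02 CPM in MDA-MB-231 (range 3.75 to 9.39). FLT4, the VEGFC receptor, had a median of 0.0634 CPM in MCF10A and of 0 in MDA-MB-231, where no library held more than 3 counts. NRP2, the relative of NRP1, stood at 4.48 CPM in MCF10A and 5.78 CPM in MDA-MB-231 at the median. A level of 3 counts, the upper limit that a count of 0 allows, equals 0.0601 to 0.126 CPM in the MCF10A libraries and 0.0715 to 0.171 CPM in the MDA-MB-231 libraries, and such limits cover counting error only.

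CALCRL, the adrenomedullin receptor, had medians of 0.549 CPM in MCF10A and 0.0734 CPM in MDA-MB-231. Of its partners, RAMP1 stood at 1.42 CPM and 12.3 CPM at the median, RAMP2 reached at most 1 count in MCF10A and 3 counts in MDA-MB-231, and RAMP3 had 0 counts in MCF10A and at most 1 in MDA-MB-231. ACKR3, a receptor that scavenges adrenomedullin, was well above these in MCF10A, with a median of 48.2 CPM (range 17.1 to 233), and reached at most 3 counts in MDA-MB-231. In P of MCF10A it held 37.0 and 23.6 CPM in N and 66.1 and 233 CPM in hypoxia with PP242, a log2 fold change of 2.31 (SE 0.60, adjusted p = 0.0185). The endothelin receptors were measurable in MDA-MB-231, with medians of 1.52 CPM for EDNRA and 10.9 CPM for EDNRB (range 8.58 to 13.7), while EDNRA had at most 2 counts in any MCF10A library and EDNRB at most 0.428 CPM.

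Of the VEGF and neuropilin partners (receptors, plexins and class 3 semaphorins), hypoxia alone called 0 of 10 tested in MCF10A and 0 of 14 in MDA-MB-231 in either fraction by edgeR. At an unadjusted p under 0.05 there were 2 in T and 2 in P of MCF10A and 6 in T and 5 in P of MDA-MB-231, where 1426 and 1636 of 13124 and 1712 and 2327 of 13510 genes in all stood at that level, and the lists were not counted with DESeq2. Under hypoxia with PP242 2 rose in T and 3 in P of MCF10A, and 3 rose and 1 fell in T and 4 rose in P of MDA-MB-231, where 7.43% and 10.2% of all MCF10A genes and 6.31% and 9.71% of all MDA-MB-231 genes were called higher, and 6.91% of those in T of MDA-MB-231 lower. Of the 2 in T of MCF10A FLT4 held 1 and 0 counts in N and 7 and 10 with PP242 in hypoxia, so that its fold is not given. PLXNA3, a plexin co-receptor with neuropilins, rose in P of both lines, by a log2 fold change of 1.32 in MCF10A (adjusted p = 0.0245) and 1.05 in MDA-MB-231 (adjusted p = 0.0195). SEMA3F, a semaphorin that binds NRP2, also rose in P, by 0.98 (adjusted p = 0.0431) and 1.17 (adjusted p = 0.00702). SEMA3B, of the same class, rose in MCF10A by 1.17 in T (adjusted p = 0.0124) and 1.51 in P (adjusted p = 0.00271). KDR rose in MDA-MB-231 by 0.82 in T (adjusted p = 0.0219) and 0.87 in P (adjusted p = 0.0108).

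Of the adrenomedullin and endothelin system, 9 genes were tested in MCF10A and 8 in MDA-MB-231, and hypoxia called 1 in each line and fraction, where 1.39% and 1.33% of all MCF10A genes and 0.977% and 1.78% of all MDA-MB-231 genes were called higher. It was PAM, the enzyme that amidates adrenomedullin and other peptide hormones. In T PAM held 114 and 109.1 CPM in N and 340 and 367 CPM in H of MCF10A, and 127 and 106.2 CPM in N and 271 and 241 CPM in H of MDA-MB-231. It rose by a log2 fold change of 1.67 in T (adjusted p = 0.00514) and 1.63 in P (adjusted p = 0.00528) of MCF10A, and of 1.13 (adjusted p = 0.0018) and 1.04 (adjusted p = 0.00387) of MDA-MB-231, so that the amidating enzyme rose in both lines and ADM was called in MCF10A. Hypoxia with PP242 called 1 higher in T, and 2 higher and 1 lower in P of MCF10A, where 7.43% and 10.2% of all genes were called higher. In MDA-MB-231 it called 2 higher in T, and 1 higher and 2 lower in P, where 6.31% and 9.71% were called higher. PAM was among those higher each time. ECE2, an endothelin-converting enzyme, fell in P of both lines, by −2.89 in MCF10A (adjusted p = 0.00547) and −0.52 in MDA-MB-231 (adjusted p = 0.0335) on the log2 scale. In P 11.9% and 9.73% of all genes were called lower. ECE1, another such enzyme, rose in T of MDA-MB-231 by 0.84 (adjusted p = 0.0309).

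Of the angiopoietins and their relatives 4 were tested in each line. Only hypoxia with PP242 called any in MCF10A, TIE1 in T, on 2 counts in each N library against 9 and 14, and ANGPTL6 in P (log2 fold change 2.03, adjusted p = 0.0156), where 7.43% and 10.2% of all genes were called higher. Of 25 other secreted angiogenic factors and inhibitors tested in MCF10A hypoxia called 2 higher and 1 lower in T and in P, where 1.39% and 1.33% of all genes were called higher and 0.145% and 0.160% lower. Of 26 in MDA-MB-231 it called 1 higher in T and 2 in P, where 0.977% and 1.78% were called higher. Of the 25 in MCF10A hypoxia with PP242 called 4 higher and 3 lower in T, and 5 higher and 1 lower in P. Of all MCF10A genes 7.43% were called higher and 7.47% lower in T, and 10.2% higher and 11.9% lower in P. Of the 26 in MDA-MB-231 it called 3 higher in T, and 5 higher and 1 lower in P. There 6.31% of all genes were called higher in T, and 9.71% higher and 9.73% lower in P.

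APLN, which encodes the vessel-acting peptide apelin, rose in hypoxia in both lines, by a log2 fold change of 3.22 in T of MCF10A (adjusted p = 0.000986) and 0.95 in T of MDA-MB-231 (adjusted p = 0.015). With PP242 in normoxia it fell in MCF10A by −2.38 in T (adjusted p = 0.0323) and was called lower in P (adjusted p = 0.00328), where it held 14 and 45 counts in N and 2 and 1 with PP242. EFNA1, an ephrin ligand of EPH receptors, rose with PP242 in hypoxia by 1.95 in T (adjusted p = 0.00246) and 1.598 in P (adjusted p = 0.0053) of MCF10A, and by 0.92 (adjusted p = 0.0487) and 1.06 (adjusted p = 0.0182) of MDA-MB-231, and in MCF10A also with PP242 in normoxia, by 1.90 in T (adjusted p = 0.0318) and 1.66 in P (adjusted p = 0.0371). ANG, a secreted ribonuclease known as angiogenin, rose in hypoxic MCF10A by 2.63 in T (adjusted p = 0.00533), and with PP242 in hypoxia by 3.24 in T of MCF10A (adjusted p = 0.0005) and 1.78 in T of MDA-MB-231 (adjusted p = 0.000523). CXCL8, an angiogenic chemokine, fell in hypoxic MCF10A by −1.88 in T (adjusted p = 0.0165). In T of MCF10A it rose with PP242 in normoxia by 1.90 (adjusted p = 0.0318) and in hypoxia by 2.17 (adjusted p = 0.00152), against N in each case. With PP242 in hypoxia it also rose in P of both lines, by 2.48 in MCF10A (adjusted p = 0.000666) and 1.51 in MDA-MB-231 (adjusted p = 0.0159). PDGFA fell with PP242 in hypoxia in MCF10A, by −2.07 in T (adjusted p = 0.0038) and −2.03 in P (adjusted p = 0.00342). FGF2 (−2.17, adjusted p = 0.0435) and TGFB2 (−2.58, adjusted p = 0.0274) fell there in T. In P of MDA-MB-231 MDK fell by −0.81 (adjusted p = 0.0265) in that treatment.

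The patterns of the 10 factors over the 16 group means of log2 CPM, each line centred on its own mean, were compared as a description, in which the points share libraries and the 2 lines. PGF and EDN1 were most like each other (Pearson r = 0.965), and PGF was also like ANGPTL4 (r = 0.960). The MCF10A means of PGF rest on 7 to 66 counts per library, with replicates up to 5.61-fold apart. ADM and STC1 (r = 0.941) and VEGFA and STC1 (r = 0.900) were close as well, while NRP1 and VEGFC had a negative r (−0.530).

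Over 12373 genes that both lines had tested, the one most like STC1 was VLDLR, a lipoprotein receptor (r = 0.994), and HK2, a hexokinase, was among its nearest 5 (r = 0.978). ADM was nearest to CRABP2 (r = 0.979) and then to ERO1A, an oxidase of the endoplasmic reticulum (r = 0.973). ANGPTL4 was nearest to CD34 (r = 0.981), STC2 to IRS2, an adaptor of insulin signalling (r = 0.938), and EDN1 and PGF to each other. VEGFA was nearest to DOK3 (r = 0.964), VEGFB to ST6GALNAC6 (r = 0.985), VEGFC to ZBED8 (r = 0.948) and NRP1 to DMXL1 (r = 0.951).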

How the data were processed

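The authors sequenced poly(A)-selected TruSeq v2 libraries (no strand stated), mapped the reads with STAR and deposited RSEM expected counts as whole numbers, unnormalised. The study's methods name GRCh38 and the submitters' processing notes name GRCh37; no coordinate comes from the deposited counts. Rounding changed 0 values and 0 columns were left unused. Protein-coding counts were filtered (filterByExpr), TMM-scaled and fitted per line (16 libraries, 8 groups) by the quasi-likelihood test of edgeR 4.0.16 in R 4.3.3, with limma 3.58.1; SE is the absolute log2 fold change over the square root of F. Alternatives were DESeq2 1.42.0, RLE scaling, no filter, all gene classes, replicate blocks, 4-library fits, a threshold of 0.1 and leaving out each library. Named genes were the 10 factors, their receptors, and list genes called in both lines in 1 fraction and direction or, at most 3 more per list, of lowest adjusted p, with the 5 genes of highest Pearson r. ECE1, PDGFA, FGF2, TGFB2 and MDK were named as well, to show changes in the other direction. The members and lists were chosen with earlier results of these data known. The fit was tested on simulated counts.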

Additional observations from a re-analysis of the deposited data

Results flagged for a closer look

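Responses of 4 factors differed between the lines in the joint edgeR fit of all 32 libraries, given as the log2 fold change in MDA-MB-231 minus that in MCF10A. STC2 differed in T under hypoxia by −2.37 (adjusted p = 0.0253), on 19 to 34 counts per library of MDA-MB-231, and the call was lost without any 1 of the 8 libraries compared. Under hypoxia with PP242 3 factors differed in P, STC1 by −2.31 (adjusted p = 0.0117), ANGPTL4 by −2.01 (adjusted p = 0.0142) and ADM by −1.58 (adjusted p = 0.0275). Line, medium and sequencing series cannot be told apart in these tests.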

How the results depend on the processing

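None of 49 results for single factors (those called, and VEGFA, EDN1, ADM and STC1 under hypoxia) changed direction under any alternative, while uncalled results near 0 could, as VEGFC in T of hypoxic MCF10A did (0.14 to −0.02). Over their alternatives 1056 values stayed on their side of the threshold, 98 lost their call and 31 gained one. Counts of called factors were within 1.5 times the reported count in 613 cases, and the others follow. With hypoxia in T of MDA-MB-231 (2 called) the count was 5 with DESeq2, 6 without the filter, 5 with the replicate block, 1 in the fit to 4 libraries and 4 at the threshold of 0.1. In P of MDA-MB-231 (2) it was 5, 8, 5 and 5 with DESeq2, no filter, block and threshold, and in P of MCF10A (4) it was 0 with 4 libraries. With PP242 in normoxia, T of MCF10A (0) gave 1 with DESeq2, 1 with the block, 2 with a block within fraction and 1 at 0.1, and T of MDA-MB-231 (1) gave 2 with DESeq2, 0 with 4 libraries and 2 at 0.1. In P it gave 0 without the filter and 0 with 4 libraries in MCF10A (1), and 1 with 4 libraries in MDA-MB-231 (2). Hypoxia with PP242 in MDA-MB-231 gave 3 in T (1) and 6 in P (2) without the filter. HPP against H in T gave 1, VEGFA, with the block within fraction in MCF10A (0) and 1 with 4 libraries in MDA-MB-231 (2). The line difference under hypoxia gave 2 with DESeq2, 2 with the block and 4 with the block within fraction in T (1), and 2, 3 and 4 in P (0), with 1 under RLE scaling and 2 at 0.1. Under hypoxia with PP242 it gave 4 with DESeq2, 2 with RLE scaling, 1 without the filter, 4 with either block and 4 at 0.1 in T (0), and 5 with the block within fraction in P (3). The cause of these changes was not tested.

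Leaving out each library in turn gave 1 to 5 calls in T and 3 to 6 in P of MCF10A for hypoxia, and 2 to 3 and 1 to 4 in MDA-MB-231. For PP242 in normoxia it gave 0 to 1 in T and 0 to 1 in P of MCF10A, and 0 to 1 and 0 to 2 in MDA-MB-231. For hypoxia with PP242 it gave 4 to 6 in T and 4 to 6 in P of MCF10A, and 1 to 1 and 1 to 3 in MDA-MB-231. For HPP against H it gave 0 in MCF10A, and 0 to 2 in T and 0 to 3 in P of MDA-MB-231, and for P against T in normoxia 0 in MCF10A and 0 to 2 in MDA-MB-231. For translational efficiency it gave 0 in both lines. The line difference gave 0 to 1 in T and 0 to 2 in P for hypoxia, 0 to 1 and 0 to 0 for PP242 in normoxia, and 0 to 3 and 0 to 4 for hypoxia with PP242. A group left with 1 library was assumed to vary like the other groups. The line differences for both PP242 treatments were added after seeing the data.

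Replicate numbers were not taken to pair the libraries. The titles give T and P of a treatment and replicate 1 shared running number, and a block by it called no efficiency change in either line (0 of the 10). Differences between replicate 1 and replicate 2 correlated across genes from −0.641 to 0.778 in MCF10A, over 0.1 in 11 of 28 pairs of groups (6 of 6 within T, 3 of 6 within P, 1 of 4 between T and P of the same treatment and 1 of 12 others), and from −0.187 to 0.348 in MDA-MB-231, over 0.1 in 19 of 28. Scaling moved the median of all genes by at most 0.151 (log2), with DESeq2, in the line difference under hypoxia with PP242. Depth limits PGF in MCF10A (7 to 66 counts per library) and STC2 in MDA-MB-231 (13 to 82).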
